A study of Mus musculus with 6 samples.

Results

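Cells sense DNA outside the nucleus and mitochondria through cGAS and STING, and enzymes that destroy or edit stray nucleic acids limit what reaches such sensors. The genes described here are 10 of the 55098 listed in an RNA-seq table of mouse cerebellum, chosen by gene name and function. The choice was made with earlier results of these data known. Mb21d1 (cGAS), Tmem173 (STING), Tbk1 and Ikbke carry the signal. Trex1, Samhd1, Rnaseh2a, Rnaseh2b, Rnaseh2c and Adar clear or modify nucleic acids. All 10 were found in the table.

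The study profiled the entire cerebellum from male mice of postnatal day 60, either wild-type (WT) or knock-out (KO) for Slc39a14, as a mouse model of manganese-induced dystonia parkinsonism with onset in childhood. Slc39a14 encodes ZIP14, a membrane carrier of manganese and other divalent metals. WT libraries came from animals 1, 3 and 5 and KO libraries from animals 2, 4 and 6, 1 library each. Strain, allele, the cells that lose the gene and any batch were not stated in the labels, which name no treatment.

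As background, cGAS binds double-stranded DNA and makes the cyclic dinucleotide cGAMP, which binds STING on the endoplasmic reticulum. STING then moves to the Golgi and recruits the kinases TBK1 and IKK-epsilon, which activate IRF3 and so the transcription of type I interferon. Manganese is a known activator of cGAS and STING. In people, loss of TREX1, SAMHD1, an RNase H2 subunit or ADAR1 causes Aicardi-Goutières syndrome, an inherited inflammatory brain disease with raised interferon signalling.

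The libraries held 13805997 to 15788135 counts, so that 1 count was worth 0.0633 to 0.0724 CPM, the count scaled to library size; levels below are TMM-normalized CPM. Slc39a14 itself had 582, 646 and 598 counts in the WT and 654, 572 and 640 counts in the KO libraries (log2 fold change -0.0035, SE 0.11, edgeR adjusted p = 1.0). The count of the knocked-out gene thus did not check the labels, and WT and KO below mean the libraries that carry these labels. All 11 markers of cerebellar neurons and glia were detected and tested. WT 5 and KO 4 stood apart from the other 4 libraries on the first principal component, at 25.9 and 15.4 against -15.2 to -4.79. On the second, WT libraries lay at 10.3 to 17.4 and KO libraries at -17.6 to -7.84. The 2 components held 29.6% and 26.9% of the variance of the 1000 most variable genes.

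None of the 10 genes was called different between KO and WT. The low-count filter kept 8 of them, all except Mb21d1 and Trex1. Of these 8, 0 passed an adjusted p under 0.05 in edgeR's quasi-likelihood test, and neither limma-voom nor DESeq2 called any. The background was 0.0467%: 8 of 17142 tested genes were called, all 8 higher in KO (0 to 28 called with single libraries left out). None of the 8 tested members had an unadjusted p under 0.05 in edgeR, against 2.75% of all tested genes.

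Log2 fold changes, KO over WT, ran from -0.10 for Tbk1 to 0.45 for Tmem173. Their median was -0.054, beside -0.0036 over all tested genes, with 2 positive and 6 negative. In 0 of the 8 did every KO library lie on the same side of every WT library, while 7.26% of all tested genes had groups that do not overlap (3.58% with KO higher and 3.68% with KO lower). In all 8 the range within a group exceeded the difference between group means, as it did in 96.6% of all tested genes. The authors' deposited table gives log2 fold changes of -0.099 to 0.46 for the 9 members with counts, each with an adjusted p of 1.0.

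**Figure D1:**
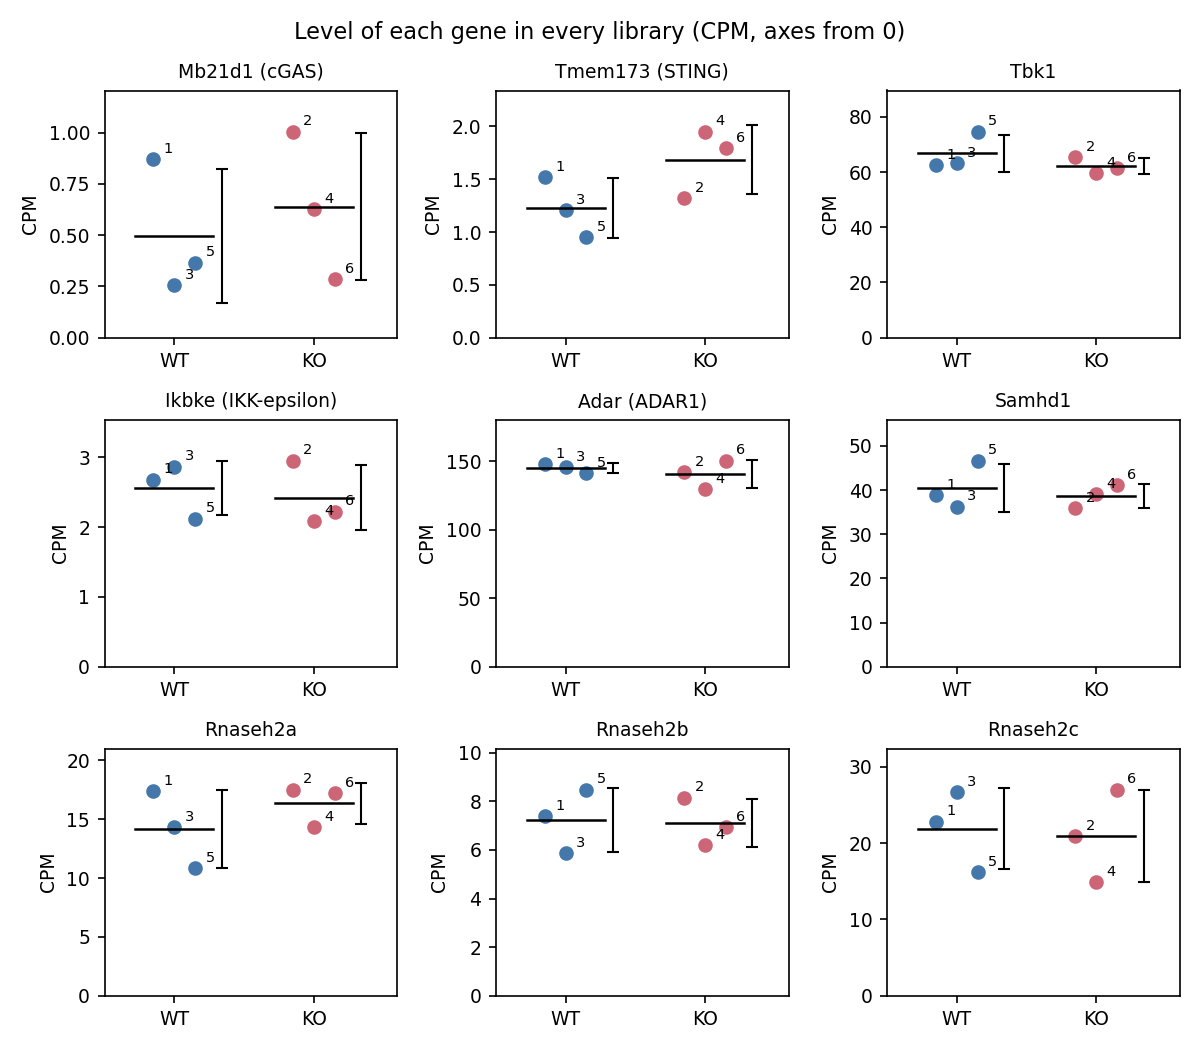
Each panel plots the level of 1 gene (vertical axis, CPM, from 0) in the WT and KO libraries; points carry the animal number, the line is the group mean and the bar its SD (n = 3). In all 9 panels the KO points overlap the range of the WT points; Trex1, with 0 counts in every library, is not drawn.

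Promoter sequences are shown to set the letters of the members beside those of interferon response genes. RefSeq windows (GRCm38.p6, 250 bases before to 50 after a start) were scanned for 8 of the 10 genes, with 11 windows. Both strands were searched for the core of the interferon-stimulated response element (GAAA, any 2 bases, GAAA), for the STAT letters TTCNNNGAA, and for a shorter core, GAAANNGAA, added after the sequences were seen. Every full core also holds a shorter one. The full core was in 0 of the 11 member windows and in 3.44% of all 32851 windows. The STAT letters were in 3 of the 11, those of Samhd1, Rnaseh2a and 1 of the 3 Adar starts, and in 8.30% of all windows. The shorter core was in 1 of the 11, at the same Adar start, and in 8.56% of all windows. Of the called interferon response genes, 3 had a window: Ifit1 and Ifit3 held the full core, and Oasl2 held none of the 3 motifs. The 3 member windows follow, with that of Ifit1 to show the full core. Capitals mark every match to these motifs, with overlapping matches run together, and each sequence runs 5′ to 3′ on the strand of its gene (minus for Samhd1 and Rnaseh2a, plus for Adar and Ifit1).
Samhd1 chr2:157135047-157135346: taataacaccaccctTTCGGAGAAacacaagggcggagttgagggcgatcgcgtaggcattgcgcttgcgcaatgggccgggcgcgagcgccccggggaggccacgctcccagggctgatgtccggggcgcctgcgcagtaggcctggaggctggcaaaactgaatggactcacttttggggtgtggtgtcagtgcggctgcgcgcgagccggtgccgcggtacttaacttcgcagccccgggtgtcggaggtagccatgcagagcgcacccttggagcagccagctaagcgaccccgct
Rnaseh2a chr8:84966027-84966326: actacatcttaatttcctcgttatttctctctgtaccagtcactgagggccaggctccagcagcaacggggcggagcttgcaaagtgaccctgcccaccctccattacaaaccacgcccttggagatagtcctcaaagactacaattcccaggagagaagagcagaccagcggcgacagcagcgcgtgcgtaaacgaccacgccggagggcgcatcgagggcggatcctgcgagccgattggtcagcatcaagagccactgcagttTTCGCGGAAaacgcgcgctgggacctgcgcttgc
Adar chr3:89730468-89730767: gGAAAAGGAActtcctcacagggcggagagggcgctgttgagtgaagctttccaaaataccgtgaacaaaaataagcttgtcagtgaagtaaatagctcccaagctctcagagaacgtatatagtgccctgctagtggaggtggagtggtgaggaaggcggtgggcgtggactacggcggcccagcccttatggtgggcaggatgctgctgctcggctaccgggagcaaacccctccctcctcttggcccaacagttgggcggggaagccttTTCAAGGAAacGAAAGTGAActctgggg
Ifit1 chr19:34640639-34640938: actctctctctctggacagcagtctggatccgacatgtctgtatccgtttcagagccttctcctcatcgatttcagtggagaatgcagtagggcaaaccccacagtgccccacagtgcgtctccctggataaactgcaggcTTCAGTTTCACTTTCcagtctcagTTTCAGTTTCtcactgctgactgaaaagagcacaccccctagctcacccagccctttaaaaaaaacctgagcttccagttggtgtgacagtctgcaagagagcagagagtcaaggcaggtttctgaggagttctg
In the Samhd1 window the STAT letters began 235 bases upstream of the start, and in that of Rnaseh2a 17 bases downstream. The Adar window held STAT letters 23 bases downstream and shorter cores 249 bases upstream and 34 bases downstream. In Ifit1 the full cores began 104 and 85 bases upstream, on the antisense strand. A match describes letters only and does not by itself show a binding site.

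The sensor was measured on few counts. Mb21d1, the older symbol of cGAS (ENSMUSG00000032344, chromosome 9, 78430526 to 78443237, minus strand, GRCm38.p6 as for all genes here), had 12, 4 and 5 counts in WT animals 1, 3 and 5. KO animals 2, 4 and 6 had 16, 9 and 4 counts. WT 1 and KO 2 were the high libraries, and the groups overlapped. It did not pass the low-count filter, and DESeq2, run without that filter, gave a log2 fold change of 0.38 (adjusted p = 1.0). These values rest on 21 counts in all WT and 29 in all KO libraries.

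STING had the fold change farthest from 0 among the members, also on few counts. Tmem173 (ENSMUSG00000024349, chromosome 18, 35733678 to 35740554, minus strand) had 21, 19 and 13 counts in the WT and 21, 28 and 25 in the KO libraries. In CPM, the WT animals (1, 3, 5) gave 1.52, 1.21 and 0.951, and the KO animals (2, 4, 6) 1.32, 1.95 and 1.79. KO 4 and KO 6 lay above every WT library, and KO 2 lay below WT 1. The means were 1.23 ± 0.286 CPM in WT and 1.69 ± 0.329 for KO (SD, n = 3 each), a log2 fold change of 0.45 (SE 0.35, 95% interval -0.32 to 1.22, edgeR adjusted p = 1.0). That interval covers 0.801-fold to 2.34-fold. The log2 value was 0.19 without WT 5 and KO 4, its lowest and highest libraries, a choice made after seeing the data. With single libraries left out it ranged from 0.31 (without WT 5) to 0.63 (without WT 1).

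In brain, Tmem173 is known mainly from microglia, vessels and border tissue, so markers of such cells are given beside it. The summed level of 15 microglia and macrophage markers was 138 to 149.9 CPM in the WT libraries and 171 to 222 CPM in the KO libraries. Of these markers 13 had positive fold changes (median 0.43), and 7 were higher and 1 lower in KO without overlap. None was at 0, edgeR called 0 and DESeq2 called 1, and 8 had an unadjusted p under 0.05 in edgeR. Over all tested genes, 3.58% were higher and 3.68% lower without overlap, and 2.75% had such an unadjusted p. The 10 choroid plexus markers summed to 162 to 775 CPM in the WT libraries and 633 to 1891 CPM in the KO libraries, with all 10 positive (median log2 fold change 1.43), 9 with an unadjusted p under 0.05, and 0 called by edgeR, limma-voom or DESeq2. For 9 meningeal fibroblast markers the sums were 462 to 827 CPM in the WT libraries and 807 to 934 CPM in the KO libraries, with all 9 positive (median 0.22), 0 with an unadjusted p under 0.05 and none called, and WT 5 was the lowest. Sums of 10 endothelial markers overlapped, at 257 to 294 CPM in the WT libraries and 277 to 286 CPM in the KO libraries. The choroid plexus sum, like Tmem173, was lowest in WT 5 and highest in KO 4. Within WT both fell from animal 1 to 3 to 5. Among the KO libraries the microglia sum was lowest in KO 2, as was Tmem173. Neither sum followed Tmem173 in every library. The microglia sum was lowest in WT 1, the WT library with most Tmem173. The choroid plexus sum was lower in KO 6 than in WT 1, where Tmem173 was higher in KO 6. The part of these cells in the Tmem173 values was not tested, and in whole tissue more cells of a type cannot be told apart from more RNA per cell.

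Over the 6 libraries, the genes whose centred log2 CPM lay nearest to that of Tmem173, of 16058 searched, were Igfbp6, Bmp7 and Smco4 (root mean square differences of 0.048, 0.059 and 0.065). Like Tmem173, all 3 were lowest in WT 5 and highest in KO 4, which follows from picking them by likeness. Tmem173 had only 13 to 28 counts per library, so its pattern itself carries counting error. Igfbp6, a binding protein of insulin-like growth factors, read 6.58 CPM in WT 5 and 13.5 CPM in KO 4.

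Of the kinases, Tbk1 was measured closely. Tbk1 (ENSMUSG00000020115, chromosome 10, 121546455 to 121586787, minus strand) encodes the kinase that phosphorylates IRF3. In CPM, the WT animals (1, 3, 5) gave 62.5, 63.1 and 74.6, and the KO animals (2, 4, 6) 65.5, 59.7 and 61.5. WT 5 was the highest library, and the other 5 lay close together. Means were 66.7 ± 6.81 CPM in WT and 62.2 ± 2.96 for KO (SD, n = 3 each), with a log2 fold change of -0.10 (SE 0.11, 95% interval -0.34 to 0.14, edgeR adjusted p = 1.0), or 0.789-fold to 1.10-fold.

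Ikbke (ENSMUSG00000042349, chromosome 1, 131254343 to 131279606, minus strand) encodes the related kinase IKK-epsilon and was far less abundant. Its WT libraries were at 2.68, 2.87 and 2.12 CPM and its KO libraries at 2.95, 2.09 and 2.22 CPM, in the order of animals used above. Each group held high and low libraries, with means of 2.56 ± 0.388 and 2.42 ± 0.464 CPM (SD, n = 3 each). KO over WT it stood at -0.077 on the log2 scale (SE 0.28, 95% interval -0.70 to 0.54, edgeR adjusted p = 1.0). Levels per length are the authors' FPKM (scaled by gene length and library total). In these, Tbk1 was 61.9 ± 16.7 times Ikbke in WT and 60.3 ± 7.96 times in KO (SD, n = 3 each). The size of the ratio rests on gene lengths of 3910 bases for Tbk1 and 9018 for Ikbke. An exact two-sided permutation test of the log2 ratio gave p = 1.0, with 0.1 the smallest this design allows.

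Trex1 could not be read from this table. Trex1 (ENSMUSG00000049734, chromosome 9, 109057933 to 109059734, minus strand), the main exonuclease of cytosolic DNA, is listed at 0 counts in all 6 libraries. In GENCODE M21, a GRCm38 annotation used here to look for overlaps, all 1147 of its exonic bases are also exonic in Atrip on the same strand. Atrip had 428, 517 and 443 counts in the WT and 555, 419 and 556 counts in the KO libraries (log2 fold change 0.11, SE 0.13, edgeR adjusted p = 1.0). Of 133 protein-coding genes with every exonic base shared on the same strand, 117 (87.97%) had no count in any library, as had 36 of 37 covered on the opposite strand. Among the 15464 with no shared exonic base the share was 23.4%. A floor of 3 counts is 0.190 to 0.217 CPM in these libraries, but it covers counting error only and sets no limit on Trex1 RNA where shared bases went uncounted, which was not tested.

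Samhd1 (ENSMUSG00000027639, chromosome 2, 157097533 to 157135265, minus strand) encodes an enzyme that degrades deoxynucleotides, and it shares no exonic base with another listed gene. In CPM, the WT animals (1, 3, 5) gave 38.8, 36.2 and 46.7, and the KO animals (2, 4, 6) 35.8, 39.1 and 41.1. KO 2 was the lowest and WT 5 the highest library, and the groups overlapped. Means were 40.6 ± 5.43 CPM in WT and 38.7 ± 2.63 for KO (SD, n = 3 each). The difference was -0.070 on the log2 scale (SE 0.13, 95% interval -0.35 to 0.21, edgeR adjusted p = 1.0), which covers 0.784-fold to 1.16-fold.

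RNase H2 removes ribonucleotides from DNA and RNA from RNA-DNA hybrids; subunit A carries the active site and B and C form the structural part. Rnaseh2a (ENSMUSG00000052926, chromosome 8, 84956610 to 84969767, minus strand) was lowest in WT 5. In CPM, the WT animals (1, 3, 5) gave 17.4, 14.3 and 10.8, and the KO animals (2, 4, 6) 17.5, 14.3 and 17.2. The other WT libraries overlapped the KO libraries, with a difference of 0.21 on the log2 scale (SE 0.19, 95% interval -0.21 to 0.62, edgeR adjusted p = 1.0). Without WT 5 it was 0.049, and it was 0.38 without WT 1. In GENCODE M21 Rnaseh2a shares 177 of 3509 exonic bases with Prdx2 on the opposite strand. It shares 339 with THSD8 on the same strand, which had 0 counts in every library. The Rnaseh2a count is uncertain to that extent, because the counting program and strand setting are not given.

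Rnaseh2b (ENSMUSG00000021932, chromosome 14, 62292589 to 62372992, plus strand), on the chromosome that also carries Slc39a14, had its highest level in WT 5 and its lowest in WT 3. WT libraries stood at 7.39, 5.86 and 8.48 CPM and KO libraries at 8.16, 6.20 and 6.95 CPM. All KO libraries fell between the extremes of WT, with a log2 fold change of -0.025 (SE 0.21, 95% interval -0.48 to 0.43, edgeR adjusted p = 1.0).

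Rnaseh2c (ENSMUSG00000024925, chromosome 19, 5601873 to 5603439, plus strand) was low in WT 5 and KO 4, the libraries that stood apart on the first component. In CPM, the WT animals (1, 3, 5) gave 22.8, 26.7 and 16.2, and the KO animals (2, 4, 6) 20.96, 14.9 and 27.01. Each group thus held high and low libraries, and the difference was -0.065 on the log2 scale (SE 0.23, 95% interval -0.59 to 0.46, edgeR adjusted p = 1.0), or -0.046 without WT 5 and KO 4. In GENCODE M21 it shares 426 of 1715 exonic bases with Kat5 on the opposite strand, and its count is uncertain to that extent because the strand setting is not given. Nearest to its pattern were Ccdc85b, Sipa1 and Barhl1 (root mean square differences of 0.041, 0.051 and 0.053), all with their lowest levels in the same pair of libraries. Nearest to Rnaseh2a were Slc7a10, Zfp707 and Fpgs (0.038, 0.051 and 0.055), all lowest in WT 5. All these genes were picked by likeness, so the shared low libraries follow from that choice.

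The subunits form a complex in equal parts, and their transcripts differed in FPKM. Per length, Rnaseh2c was at 14.4 ± 3.45 FPKM in WT and 13.7 ± 3.96 in KO (SD, n = 3 each). Rnaseh2a was at 3.88 ± 0.875 and 4.43 ± 0.467 FPKM, and Rnaseh2b at 1.11 ± 0.208 and 1.08 ± 0.148 FPKM. In single libraries Rnaseh2a was 2.27 to 4.40 times and Rnaseh2c 8.17 to 19.5 times the FPKM of Rnaseh2b. Both ratios were lowest in WT 5. Their size rests on gene lengths of 3509 bases for Rnaseh2a, 1455 for Rnaseh2c and 6243 for Rnaseh2b. Which of the annotated exons were expressed was not tested. Log2 ratios of A to B, C to B and A to C differed between KO and WT by 0.25, -0.053 and 0.30. Exact two-sided permutation tests gave p = 0.8, 1.0 and 0.3 (Benjamini-Hochberg 1.0 for each over 4 ratios, the Tbk1 to Ikbke ratio included).

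**Figure D2:**
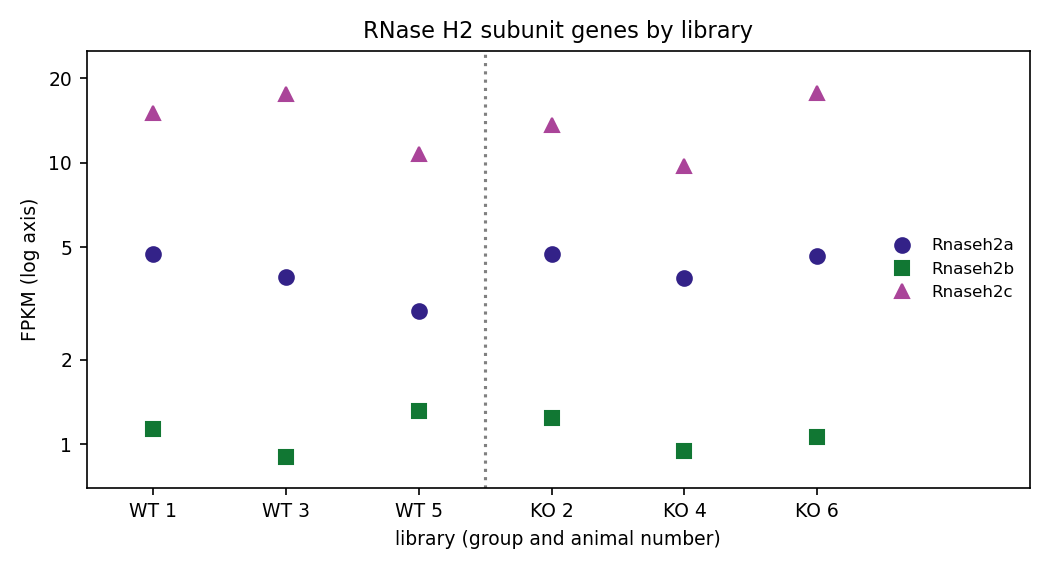
Level of each RNase H2 subunit gene (vertical axis, deposited FPKM, log scale) in the 3 WT and 3 KO libraries (horizontal axis). In every library Rnaseh2c (9.75 to 17.7 FPKM) lies above Rnaseh2a (2.98 to 4.73) and Rnaseh2a above Rnaseh2b (0.899 to 1.31).

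Adar had the smallest standard error of the members. Adar (ENSMUSG00000027951, chromosome 3, 89715022 to 89753446, plus strand) encodes ADAR1, which edits adenosine to inosine in double-stranded RNA. In CPM, the WT animals (1, 3, 5) gave 148, 146 and 141, and the KO animals (2, 4, 6) 142, 129.9 and 151. KO 6 was the highest and KO 4 the lowest library, with all WT libraries between them. Means were 145 ± 3.57 CPM in WT and 141 ± 10.4 for KO (SD, n = 3 each), with a log2 fold change of -0.044 (SE 0.092, 95% interval -0.25 to 0.16, edgeR adjusted p = 1.0), or 0.841-fold to 1.12-fold. ADAR1 has a constitutive form and a longer interferon-inducible form, which these gene-level counts cannot tell apart. Of its 8118 exonic bases 1365 are shared with Chrnb2 on the opposite strand.

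Per length, the order of the members by mean FPKM over all libraries was Adar (16.8), Tbk1 (15.8), Rnaseh2c (14.1), Rnaseh2a (4.15), Samhd1 (4.14), Rnaseh2b (1.10), Tmem173 (0.604), Ikbke (0.264) and Mb21d1 (0.131), with Trex1 listed at 0. Neighbours whose ranges over the 6 libraries overlapped were Adar and Tbk1, Tbk1 and Rnaseh2c, Rnaseh2a and Samhd1, and Ikbke and Mb21d1. The other neighbours did not overlap. The order rests on the deposited gene lengths. Tbk1 and the clearance genes other than Trex1 were above Tmem173 and Mb21d1 in every library.

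For 4 of the 8 tested members (Adar, Tbk1, Samhd1 and Rnaseh2b) the 95% interval stayed within 1.5-fold in both directions, as it did for 60.5% of all tested genes. For Tmem173, Ikbke, Rnaseh2a and Rnaseh2c it reached past 1.5-fold on at least 1 side. The upper bound of Tmem173, 1.22, was the highest among the members. The called interferon response genes Oasl2, Ifit1, Usp18 and Ifit3 had lower bounds of 2.36, 1.99, 2.05 and 1.26 in the same libraries.

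**Figure D3:**
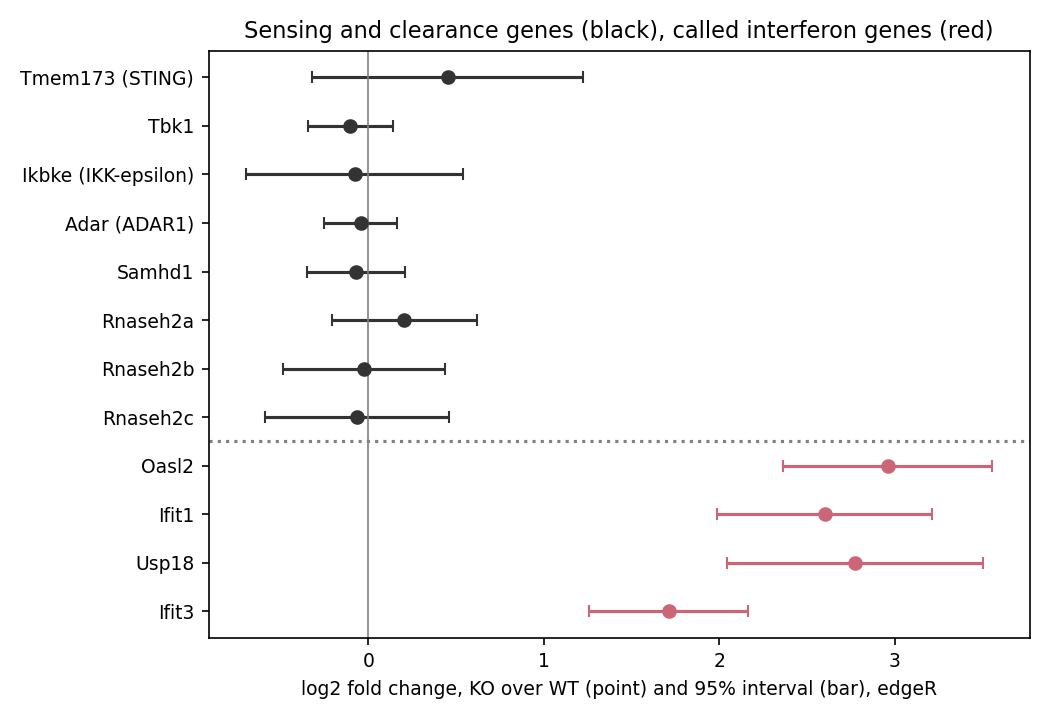
Log2 fold change, KO over WT (horizontal axis; points), with 95% intervals from edgeR (bars), for the 8 tested members in black and for Oasl2, Ifit1, Usp18 and Ifit3 in red. Every black interval includes 0 and ends at or below 1.22, and every red interval starts at or above 1.26. The red genes were picked because this fit called them, so the gap follows in part from that choice. The other tested genes of the interferon list are not drawn.

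Other genes around the pathway were read from lists by role. Of 21 other genes of cGAS-STING signalling 0 were called by edgeR, limma-voom or DESeq2, 1 had an unadjusted p under 0.05, and 16 were positive (median log2 fold change 0.045). That gene was Trim30a, an interferon-inducible protein that restrains STING signalling, which read 1.59, 1.59 and 4.68 CPM for WT 1, 3 and 5. The KO libraries read 5.02, 8.15 and 6.38 CPM, each above each WT library (a log2 difference of 1.32, SE 0.40, edgeR adjusted p = 1.0). Trim56, a ubiquitin ligase of the pathway, was at 0.28 (SE 0.17), Nlrc3 at -0.32 (SE 0.25), the coat protein gene Copa at 0.10 (SE 0.099) and Irf3 at 0.15 (SE 0.13) on the log2 scale.

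Of 17 adaptors of TBK1 and IKK-epsilon and genes of the NF-kappaB arm 0 were called by edgeR, limma-voom or DESeq2, 0 had an unadjusted p under 0.05, and 8 were positive (median -0.0018). Ticam1, an adaptor of Toll-like receptors, was at 0.24 (SE 0.22), Traf2 at 0.15, Ikbkg at 0.070 and the abundant RNA helicase gene Ddx3x at -0.0054. Among 14 genes of cGAMP transport and hydrolysis 12 were tested, 0 were called by edgeR, limma-voom or DESeq2, 0 had an unadjusted p under 0.05, and 5 were positive (median -0.0075). Slc19a1, a folate carrier that also imports cGAMP, was at 0.23 (SE 0.16), Slc46a3 at 0.16, and the channel subunit genes Lrrc8d and Lrrc8b at -0.11 and -0.022. Enpp1, whose product hydrolyses cGAMP outside cells, was at -0.027 (SE 0.16).

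Among 25 other nucleases and RNA editing enzymes 20 were tested, 0 were called by edgeR, limma-voom or DESeq2, 1 had an unadjusted p under 0.05, and 11 were positive (median 0.018). In 4 of the 20, Dnase1, Dnase2a, Exog and Adarb1, every KO library was below every WT library (3.68% of all tested genes), and in 0 above. Dnase1, a secreted nuclease, read 7.46, 7.90 and 9.07 CPM in WT libraries and 6.15, 6.48 and 5.52 in KO libraries (a log2 difference of -0.43, SE 0.18, edgeR adjusted p = 1.0). Dnase2a, the lysosomal nuclease that digests engulfed DNA, read 14.5, 13.7 and 14.3 CPM in WT libraries and 10.4, 12.5 and 12.97 in KO libraries (-0.25, SE 0.15, edgeR adjusted p = 1.0). The differences for Exog and for Adarb1, which encodes the editing enzyme ADAR2, were -0.21 (SE 0.13) and -0.12 (SE 0.082), and for Pld4 and Mgme1 0.52 (SE 0.28) and -0.35 (SE 0.19).

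Among 15 other DNA sensors 13 were tested, 0 were called by edgeR, limma-voom or DESeq2, 0 had an unadjusted p under 0.05, and 10 were positive (median 0.065). Ifi203 and Mndal, of a family of similar interferon-inducible genes whose reads could be split among them, were at 0.86 (SE 0.41) and 0.94 (SE 0.48). Tlr9, the endosomal DNA receptor, was at 0.78 (SE 0.48) and the abundant Hnrnpa2b1 at -0.051. The low-count filter removed Zbp1, a sensor of left-handed nucleic acids, with 2, 3 and 7 counts in WT and 11, 16 and 21 in KO. It also removed Ifi204, with 1, 0 and 7 counts in WT and 8, 24 and 34 in KO. In CPM the groups of Zbp1 did not overlap, and those of Ifi204 did, with KO 2 just below WT 5.

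Among 22 interferon and interferon response genes 19 were tested, and 4 rose (Oasl2, Ifit1, Usp18 and Ifit3) and 0 fell, with 18 positive and a median of 1.33. They were listed with earlier results of these data known, so the count is not independent evidence. It was 3 by limma-voom and 10 by DESeq2. Oasl2, an antiviral protein, read 2.17, 1.53 and 2.71 CPM in WT libraries and 14.5, 13.7 and 21.6 in KO libraries (a log2 difference of 2.96, SE 0.27, edgeR adjusted p = 0.0124). Over all 6 lists the 4 calls became 0 without WT 1 or without WT 3, 2 without KO 2, 1 without KO 6 and 8 without WT 5. Of the marker sums given above, that of microglia was higher in every KO library (median log2 fold change of its markers 0.43). The choroid plexus markers had a median of 1.43, with overlapping sums, and the meningeal markers one of 0.22, all positive. The part of these cells in the interferon list was not tested. Ifnb1 and Ifna2 had 0 counts in every library, and the receptor gene Ifnar1 was at -0.070 (SE 0.10). Ifih1, whose product senses double-stranded RNA of the kind ADAR1 edits, read 4.13, 3.31 and 6.58 CPM in WT libraries and 6.65, 8.50 and 6.31 in KO libraries, with KO 6 below WT 5 (0.62, SE 0.27, edgeR adjusted p = 1.0).

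**Figure D4:**
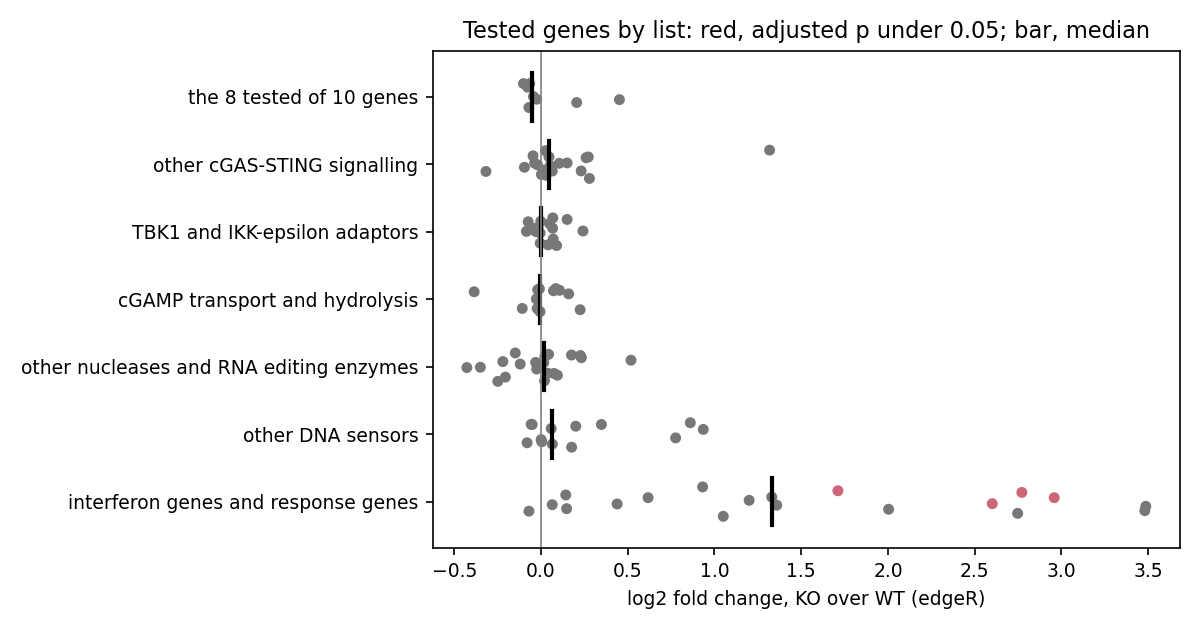
Log2 fold change, KO over WT (horizontal axis), of each tested gene, 1 point per gene, for the 8 tested members and 6 lists of pathway genes; red points passed an adjusted p under 0.05 in edgeR and black bars are medians. The medians lie between -0.054 and 0.065 in all rows except the interferon row, at 1.33, which holds all 4 red points.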

How the data were processed

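RNA was measured in whole cerebellum of 3 WT and 3 KO mice. The deposited counts are whole numbers per gene, not normalized. The submitters' processing notes name HISAT2, DESeq2 and GRCm38.p6; the counting program and strand setting were not stated. The deposited FPKM divide counts by gene length and a library total, per the file headers and values. The authors' group means are a normalized signal, and their deposited log2 fold changes and p-values compare KO with WT.

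Groups and animal numbers follow the titles. The main test was edgeR 4.0.16 (R 4.3.3): TMM, filterByExpr, quasi-likelihood F test, Benjamini-Hochberg adjustment over 17142 genes, calls under 0.05. Standard errors are the size of the log2 fold change divided by the square root of F; 95% intervals use the fit's degrees of freedom. DESeq2 1.42.0 and limma 3.58.1 (voom) were alternatives, beside other normalizations, filters and libraries left out. The edgeR step was tested on simulated data. P-values from edgeR set the difference between KO and WT beside the spread of animals within groups, an estimate moderated across genes. They rest on these 6 animals.

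The members and lists were chosen with earlier results of these data known. Named genes are the members, Slc39a14, any called genes of a list (where there were none, its 3 smallest p-values and its highest CPM), and for the 3 most variable members the 3 nearest patterns. Irf3, Enpp1, Dnase2a, Exog, Zbp1, Ifi204, Ifih1, Ifnar1, Ifnb1 and Ifna2 were named after their values were seen. Of 9 blood markers 5 were tested and 0 called, with sums of 44.6 to 81.5 CPM in the WT libraries and 49.7 to 70.5 CPM in the KO libraries. The promoter scan of the members left out chromosome 18, which carries Tmem173, and no RefSeq promoter window was matched to Rnaseh2b.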

Additional observations from a re-analysis of the deposited data

How the results depend on the processing

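None of the 8 tested members was called under any of the 15 alternatives, and their smallest unadjusted p was 0.0827. Of their 120 fold changes under alternatives, 109 kept their direction and 11 reversed. Without WT 5 and KO 4, an alternative chosen after seeing the data, Tbk1 was at 0.018, Samhd1 at 0.037 and Rnaseh2b at 0.20. With single libraries left out, Adar ranged from -0.093 to 0.015, Samhd1 from -0.14 to 0.045, Rnaseh2c from -0.29 to 0.13, Rnaseh2b from -0.15 to 0.11 and Ikbke from -0.25 to 0.022. Tbk1 (-0.14 to -0.011), Rnaseh2a (0.049 to 0.38) and Tmem173 (0.31 to 0.63) kept their sign there. Log2 ratios, KO minus WT, then ranged from -0.056 to 0.41 (Rnaseh2a to Rnaseh2b), -0.38 to 0.25 (Rnaseh2c to Rnaseh2b), 0.16 to 0.47 (Rnaseh2a to Rnaseh2c) and -0.14 to 0.20 (Tbk1 to Ikbke). Members whose groups do not overlap numbered 0 to 2: Tmem173 without WT 1, and Tmem173 and Tbk1 without KO 2.

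The count of all genes called, 8, became 142 with no low-count filter, 38 by DESeq2, 40 without WT 5 and KO 4, and 0 to 28 with single libraries left out (0 without WT 1, 0 without WT 3, 2 without KO 2, 3 without KO 6, 17 without KO 4, 28 without WT 5). Pathway list genes called, 4, became 14, 10, 9 and 0 to 8 in the same order. The cause was not tested. No paired analysis was possible because WT and KO animals share no numbers. Mb21d1, Tmem173 and Ikbke had the fewest counts of the members with any.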

Other observations

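The deposited gene lengths, which set the FPKM, equal the GENCODE M21 exonic bases for 8 of the 10 members. For Rnaseh2c the deposited length is 1455 bases against 1715, and for Tmem173 2302 against 2741. The median count summed over the 6 libraries was 285.5 in protein-coding genes that share no exonic base, and 0 in those covered wholly by another gene on either strand.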
